A study of Mus musculus with 8 samples.

Results

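Matricellular proteins are secreted into the extracellular matrix, where they bind receptors, growth factors and proteases more than they carry load. The account covers 10 genes of this class: the thrombospondins Thbs1, Thbs2, Thbs3 and Thbs4, periostin (Postn), osteonectin (Sparc), tenascin C (Tnc), osteopontin (Spp1) and the CCN proteins Ctgf (now Ccn2) and Cyr61 (now Ccn1). They were chosen by name, as every non-control probe whose gene name on the array was one of these, which gave 16 probes among the 41174 of the array and 10 genes among 21377 named ones. Heart RNA of 8 male mice aged 12 weeks was measured on 1-colour arrays, 4 wild-type mice (WT) and 4 mice overexpressing PKR2, taken to be prokineticin receptor 2, a membrane receptor for prokineticin peptides. The promoter and the cell type that drive the overexpression, and the strain, are not given in the sources used here. The comparison asked whether these genes differ between hearts with and without the extra receptor.

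In the healthy adult heart most of these genes are expressed mainly by fibroblasts, vessel wall cells and, for some, cardiomyocytes or blood-borne cells. Infarction and pressure overload are known to raise many of them, with TGF-beta, TEAD with YAP, SRF and AP-1 among the factors that drive their transcription. Within the class, the thrombospondins bind calcium, proteases and other matrix proteins, periostin and osteonectin take part in collagen assembly, and osteopontin and the CCN proteins act through integrins.

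A level below is log2 processed signal minus the array's 75th percentile, so 0 is that percentile. Mean ± SD stands for n = 4 hearts per group, a difference is PKR2 minus WT on this scale, and each p over all probes comes from limma with Benjamini-Hochberg adjustment over 22717 tested probes. Signal differed widely between arrays, with 75th percentiles from 40.9 (WT 2) to 770 (PKR2 1), and 48.3% to 67.1% of spots were well above background. On WT 2, WT 4 and PKR2 4 no spot was scaled up from low gain. Their highest signals were 63959 to 75434, against 544724 to 629146 on the other 5 arrays. WT 2, WT 4 and PKR2 4 are therefore taken to have been scanned over a lower range, which the sources used here do not state. WT 3 and PKR2 3 shared slide 5, WT 4 and PKR2 4 shared slide 6, and the other arrays lay on slides of their own. The Prokr2 probe was not well above background on any array and so does not check the genotype labels. All 12 cardiomyocyte markers read as a check of the tissue met the rule for testing given below.

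None of the members was found to differ between the groups. Of the 16 probes, 12 met the rule for testing (well above background on at least 3 of 4 arrays of a group), which covered 9 genes and left out Tnc. No member probe passed limma's adjusted p threshold of 0.05 (adjusted p = 1 for each), beside 0% of all tested probes (smallest adjusted p = 0.0930). At an unadjusted p under 0.05 stood 1 of the 12 member probes, the brighter Thbs1 probe, beside 586 probes or 2.58% of all tested. The 2 groups overlapped for every member probe, while they did not overlap for 1.83% of all tested probes. With 1 probe a gene, the brightest, 7 members had higher and 2 lower means in PKR2 hearts. Of all tested probes 54.2% had higher means, and of the 15657 features left with the brightest probe per gene 50.4% did. With median scaling the members split 4 and 5, beside 41% of all tested probes with higher means. The median difference of the 9 genes was 0.050 and that of all tested probes 0.019, or 0.0015 with the brightest probe per gene. The 95% interval of a member's difference, before adjustment, reached a median of 0.46 to each side of it. Differences smaller than that were mostly not detectable with 4 hearts a group. Adjustment over all probes asks for more, and the Thbs1 difference of 0.51 did not pass it.

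**Figure D1:**
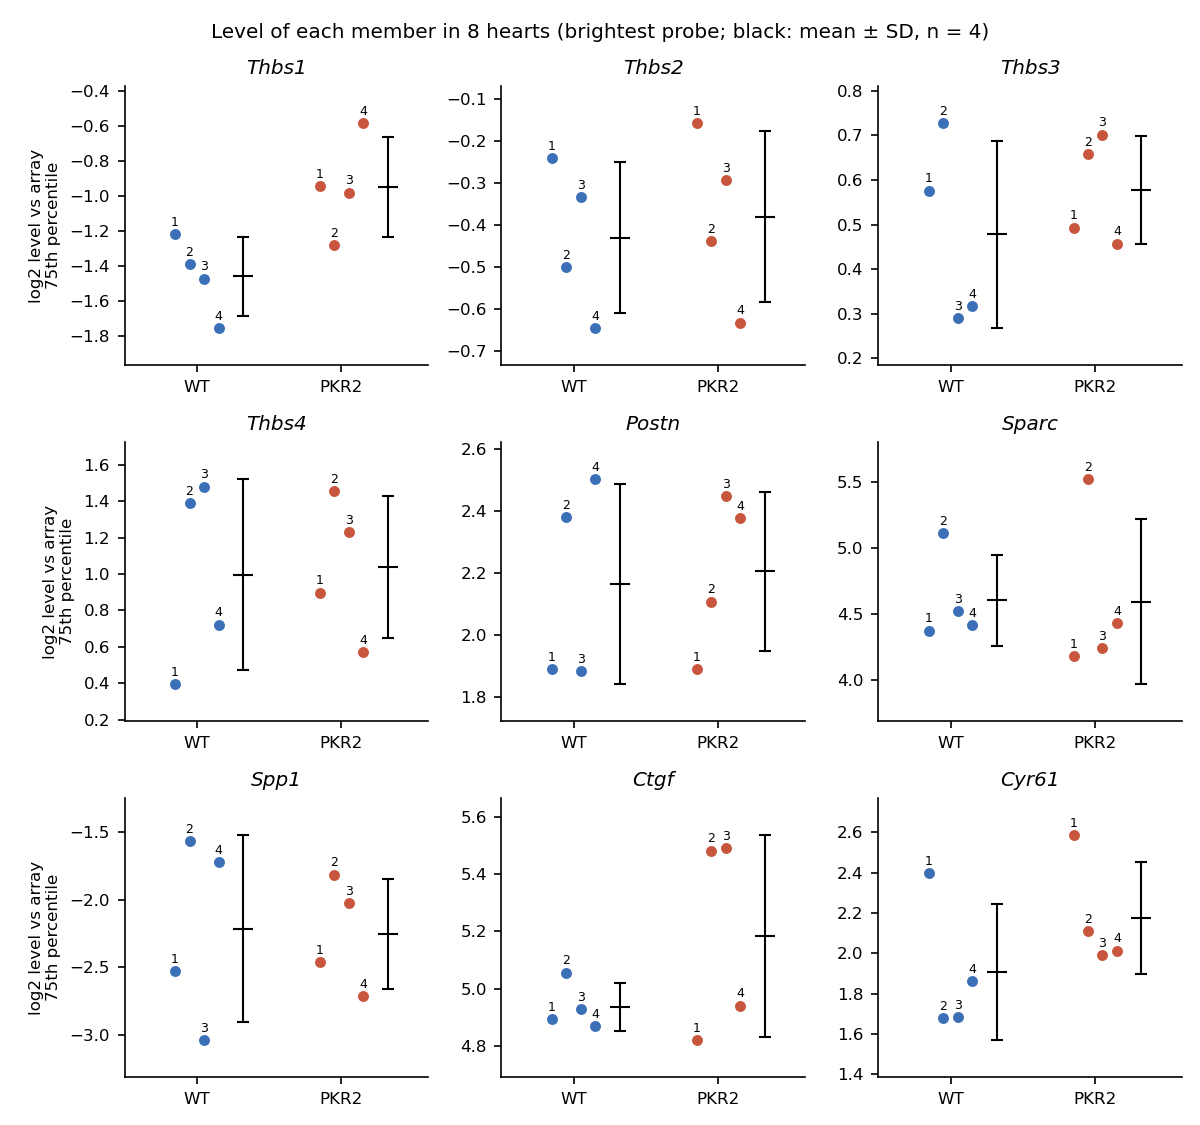
Log2 level of each member's brightest probe, relative to the array's 75th percentile, in 4 WT (blue) and 4 PKR2 (red) hearts, with the heart's number above each point and the group mean ± SD in black. The scales differ between panels, and the groups overlap in all 9 genes; Thbs1 comes nearest to separation, with WT 1 (-1.22) above PKR2 2 (-1.28).

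Thbs1, the trimeric thrombospondin that activates latent TGF-beta and signals through CD47 and CD36, had the widest difference of the 9 genes. Its brighter probe (chromosome 2, 117817480 to 117817539, mm8) read -1.22, -1.39, -1.47 and -1.76 in WT 1 to WT 4 and -0.94, -1.28, -0.98 and -0.58 in PKR2 1 to PKR2 4. The highest heart was PKR2 4 and the lowest WT 4, which shared slide 6, and a single crossing kept the groups from separating, WT 1 lying above PKR2 2. The group means were -1.46 ± 0.23 (WT) and -0.95 ± 0.29 (PKR2), so that PKR2 minus WT was 0.51 (SE 0.19, 1.43-fold, 95% interval 0.081 to 0.94). The unadjusted limma p was 0.0245 and the adjusted p 1, and the exact permutation p was 0.0571 (two-sided, n = 4), against a smallest possible value of 0.0286. In size this difference exceeded those of 95.7% of tested probes. Within slides it was 0.49 (slide 5) and 1.18 (slide 6). It was 0.0026 under normexp background correction, which added an offset of 50 to each spot. The difference was 0.25 in the authors' deposited values and 0.27 with arrays of slide position 4 only. Without the 3 arrays of the lower scan range it was 0.28, and with slide as a fixed block 0.83.

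Platelets store much thrombospondin 1, so 8 platelet and megakaryocyte markers were read beside it. All 8 were tested and none passed, with 5 higher and 3 lower in PKR2 hearts, or 3 and 5 under normexp. Their score on an array, the mean deviation of the markers from their own 8-heart means, ran from -0.46 to 0.54 in WT and from -0.99 to 0.57 in PKR2 hearts. It was lowest in PKR2 3, where only PKR2 4 and PKR2 1 had higher Thbs1 levels. Over the 8 hearts the brighter Thbs1 probe correlated with this score at r = 0.081 (exact permutation p = 0.852), and at r = -0.54 without WT 4 and PKR2 4. The marker sum (log2 of summed linear levels) was 3.85 to 4.66 in WT and 3.48 to 4.49 in PKR2 hearts. The part of platelet RNA in the Thbs1 values was not tested. Of the other Thbs1 probes, one (117814035 to 117814094) was above background on 1 WT and 3 PKR2 arrays, and the other (117812417 to 117812597) was above background on none. The former read -6.94 in WT 4 and -2.86 in WT 2, a range that enclosed all other hearts. Its difference of 0.072 (SE 0.69) was -0.70 without WT 4, 0.66 without WT 2, 1.30 with slide as a fixed block and -0.83 under normexp, so it gives no direction.

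Thbs2, the other trimeric thrombospondin, which limits angiogenesis and binds matrix metalloproteinase 2, differed between the groups by less than the spread between hearts. Its probe (chromosome 17, 14404116 to 14405379) read -0.24, -0.50, -0.33 and -0.65 in WT and -0.16, -0.44, -0.29 and -0.63 in PKR2 hearts. Each group spanned almost the same range. The means were -0.43 ± 0.18 and -0.38 ± 0.20, a difference of 0.050 (SE 0.17, 95% interval -0.32 to 0.42, exact permutation p = 0.714). The 3 arrays of the lower scan range gave the 3 lowest Thbs2 levels, in both genotypes, and the part of the scan in these levels was not tested. With scan range as a block the difference was -0.027.

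Thbs3 and Thbs4 belong to the pentameric thrombospondins. Thbs3 (chromosome 3, 89312527 to 89312586), which is known to weaken integrin adhesion at the cardiomyocyte membrane, read 0.58, 0.73, 0.29 and 0.32 in WT and 0.49, 0.66, 0.70 and 0.46 in PKR2 hearts. All PKR2 values lay inside the WT range, and only 10.8% of tested probes had a smaller SD over the 8 hearts. The difference was 0.099 (SE 0.16, 95% interval -0.26 to 0.46, exact permutation p = 0.429).

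Thbs4, which assists the endoplasmic reticulum stress factor ATF6 in cardiomyocytes, had 2 tested probes with unlike patterns over the hearts. The brighter one (chromosome 13, 93852363 to 93852422) read 0.39, 1.39, 1.48 and 0.72 in WT and 0.90, 1.46, 1.23 and 0.57 in PKR2 hearts. Hearts of both genotypes were split between high and low values, and the means of 0.997 ± 0.53 and 1.04 ± 0.39 differed by 0.042 (SE 0.29, 95% interval -0.60 to 0.69, exact permutation p = 0.914). The dimmer probe (93855918 to 93855977) read -1.70, -1.56, -2.11 and -1.94 in WT and -0.85, -1.58, -1.61 and -1.48 in PKR2 hearts. There WT 2 alone reached into the PKR2 range, and PKR2 1 stood above the other 3 of its group. The means were -1.83 ± 0.24 and -1.38 ± 0.36, a difference of 0.45 (SE 0.21, 95% interval -0.029 to 0.93, unadjusted limma p = 0.0625, exact permutation p = 0.0857). It was 0.50 within slide 5, 0.46 within slide 6, 0.27 without PKR2 1 and -0.13 under normexp. Over the 8 hearts the 2 probes correlated at r = -0.17 (exact permutation p = 0.713, rho = -0.19) and, without WT 1 and PKR2 4, at r = -0.28. The brighter probe lies 3' of the dimmer one on this minus-strand gene, and whether both report the same transcripts was not tested.

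Thbs4 is also a marker of tendon and valve. Of 10 tendon, valve and cartilage markers 6 were tested, while Tnmd, Kera, Hapln1 and Mkx fell short of the rule. All 6 had higher means in PKR2 hearts, 4 of them with median scaling or the authors' values and 3 under normexp, and none passed, with a median difference of 0.088, Fmod at 0.26 (SE 0.25) and Comp at 0.11 (SE 0.23). The score was highest in PKR2 1 (0.50), the heart with the highest value of the dimmer Thbs4 probe, and lowest in WT 3 (-0.29), the heart with its lowest. Other hearts did not follow that order. PKR2 2 and PKR2 3 scored -0.21 and -0.22, yet with the dimmer probe they read above WT 1 and WT 4, which scored 0.0088 and 0.061. No correlation of the score with the dimmer probe was computed. With the brighter Thbs4 probe the score ran inversely over the 8 hearts (r = -0.55, exact permutation p = 0.157, rho = -0.60, adjusted p = 0.620 over 153 relations, -0.69 without WT 1 and PKR2 4). The marker sum ran from 2.38 to 2.76 in WT and from 2.31 to 2.94 in PKR2 hearts. The part of such tissue in the Thbs4 values was not tested. In whole hearts, fewer cells of a type and less RNA per cell cannot be told apart.

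**Figure D2:**
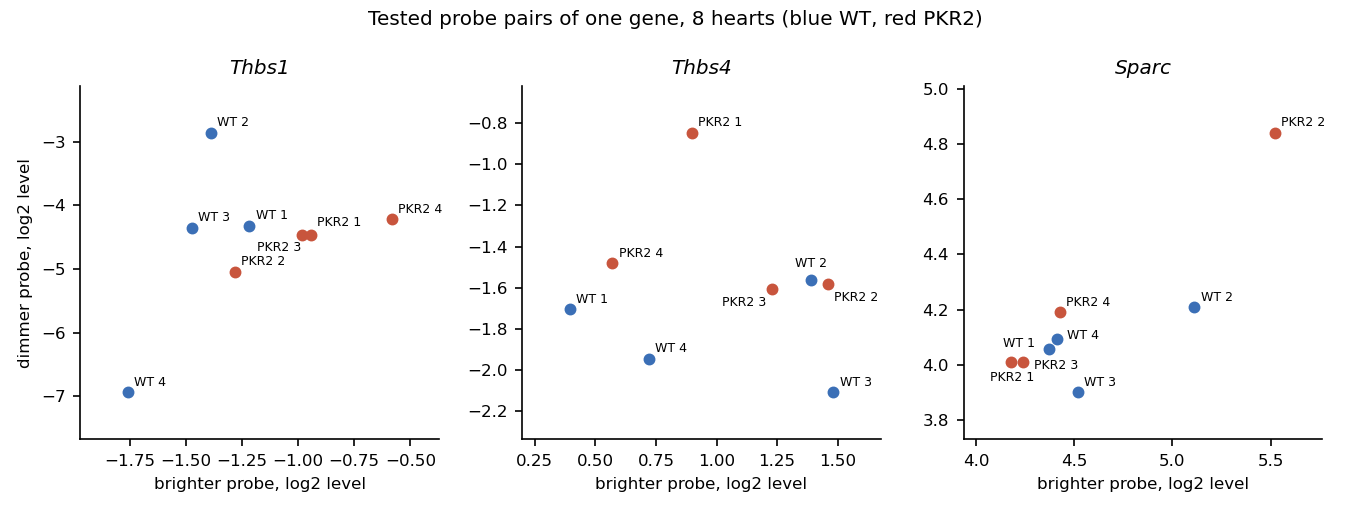
Brighter against dimmer tested probe of Thbs1, Thbs4 and Sparc, both axes log2 level relative to the array's 75th percentile, 1 point per heart (blue WT, red PKR2). The Sparc probes are both highest in PKR2 2, whereas the Thbs4 probes show no common order (r = -0.17).

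Postn, a collagen-binding protein of activated fibroblasts and valves (chromosome 3, 54478490 to 54478549), read 1.89, 2.38, 1.88 and 2.50 in WT and 1.89, 2.11, 2.45 and 2.38 in PKR2 hearts. WT 4 was highest and WT 3 lowest, so the WT range enclosed every PKR2 heart. The difference was 0.042 (SE 0.21, 95% interval -0.42 to 0.51, exact permutation p = 0.83). Across hearts Postn ran with the 11 fibrillar matrix genes, at r = 0.83 with their score (exact permutation p = 0.0102, rho = 0.67) and r = 0.78 without WT 1 and WT 3. This was 1 of 153 relations between members and list scores, none of which passed adjustment (smallest adjusted p = 0.389). Of those fibrillar genes 8 were higher and 3 lower in PKR2 hearts (median difference 0.041), or 5 and 6 with median scaling. Col5a2 differed by 0.35 (SE 0.16, limma adjusted p = 1). Col12a1, a collagen that decorates fibrils, was above background on 1 WT and 4 PKR2 arrays, so it was tested through its PKR2 values alone. Its measured difference of 0.86 (limma adjusted p = 1) compares PKR2 signal with WT signal mostly at background, and it was -0.56 under normexp.

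Sparc, which chaperones collagen during its assembly, was highest in 2 hearts, 1 of each genotype. Its brighter probe (chromosome 11, 55237934 to 55237993) read 4.37, 5.11, 4.52 and 4.41 in WT and 4.18, 5.52, 4.24 and 4.43 in PKR2 hearts. WT 2 and PKR2 2 stood above the other 6. The means of 4.60 ± 0.34 and 4.59 ± 0.63 differed by -0.011 (SE 0.31, 95% interval -0.70 to 0.68, exact permutation p = 1). The dimmer probe, which spans positions 55239370 to 55242027, gave 4.06 ± 0.13 and 4.26 ± 0.39, a difference of 0.20 (SE 0.21, exact permutation p = 0.486) that was 0.0053 without PKR2 2. The 2 probes correlated at r = 0.86 (exact permutation p = 0.0153, 0.0458 adjusted over 3 probe pairs, rho = 0.62), and at r = -0.00071 without WT 2 and PKR2 2. That relation therefore rests on those 2 hearts.

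The same 2 hearts had the highest scores of several lists: macrophages, fibroblasts, cardiomyocytes, smooth muscle with pericytes, and other matricellular genes. The macrophage score was 0.40 in WT 2 and 0.44 in PKR2 2, against -0.27 to -0.0082 in the others, and the fibroblast score 0.18 and 0.20 against -0.16 to -0.0030. Sparc correlated with the former at r = 0.93 (exact permutation p = 0.00709, rho = 0.67) and with the latter at r = 0.90 (exact permutation p = 0.00804, rho = 0.74), both at an adjusted p of 0.389 over 153 relations. Without the 2 hearts r was 0.29 and 0.26. The cardiomyocyte score was 0.11 and 0.29 in WT 2 and PKR2 2, against at most 0.057 elsewhere (r = 0.78 with Sparc, -0.43 without the 2 hearts). The smooth muscle score was 0.27 and 0.14, against at most 0.011 (r = 0.71, then -0.31), and that of the other matricellular genes 0.13 and 0.091, against at most 0.019 (r = 0.73, then -0.55). All but 1 macrophage marker (Gpnmb) and 1 fibroblast marker (Dpep1) were tested, 10 and 11 genes, and none passed between genotypes. The macrophage sum was 6.84 to 7.66 in WT and 6.57 to 7.66 in PKR2 hearts, and the fibroblast sum 9.15 to 9.91 and 9.11 to 9.95. The arrays of the 2 hearts lay on different slides and had different scan ranges, but they had the 2 lowest shares of spots well above background (48.3% and 52.8%, the others 54.6% or more) and each the lowest 75th percentile of its scan range (40.9 and 318). The part of these cells, or of these array features, in the Sparc values was not tested.

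**Figure D3:**
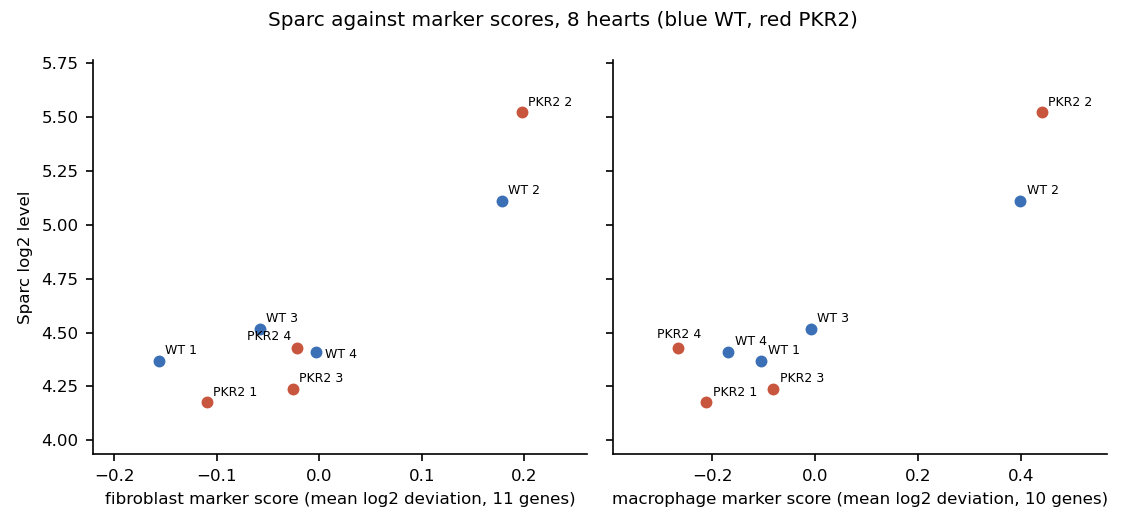
Log2 level of the brighter Sparc probe against the fibroblast score (left, 11 genes) and the macrophage score (right, 10 genes), each the mean log2 deviation of its markers from their 8-heart means, 1 point per heart. WT 2 and PKR2 2 lie apart at the upper right of both panels, and among the other 6 hearts r is 0.26 and 0.29.

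Tnc, a large hexameric protein of embryonic and injured tissue, gave almost no signal in these hearts. Its 3 probes (chromosome 4, 63446146 to 63446191, 63471205 to 63471264 and 63499575 to 63500338) were well above background on no WT array, and on PKR2 arrays only PKR2 1 was, with the first of them. The levels of that probe ran from -6.67 to -5.39 in WT and from -6.17 to -4.83 in PKR2 hearts, and no fold is given since both groups were at background.

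Spp1, an integrin ligand of macrophages and wounded tissue, was measured with 10 spots per array, whose spread can be set beside that between hearts. Its probe (chromosome 5, 104681071 to 104681130) averaged -2.53, -1.57, -3.04 and -1.72 in WT and -2.46, -1.81, -2.03 and -2.71 in PKR2 hearts. The lowest and the highest heart, WT 3 and WT 2, were both WT and lay 1.48 apart (2.78-fold). The SD over spots of 1 array was 0.075 to 0.27 with a median of 0.14, and the SD over the 8 hearts was 0.53, or 3.71 times that median. The spread between hearts thus exceeded that between spots, although neither RNA extraction nor labelling was repeated within a heart. Spots of 1 array also share its hybridization, scan and scaling, so their spread leaves these out. Processed Spp1 signal was 13.5 to 35.3 on the 3 arrays of the lower scan range. Of these, WT 2 and WT 4 read highest of all hearts, while PKR2 4 read low. With the authors' deposited values the SE of the group difference was 0.15, against 0.34 here. The means of -2.21 ± 0.69 and -2.25 ± 0.41 differed by -0.039 (SE 0.34, 95% interval -0.80 to 0.73, exact permutation p = 0.943). The difference took opposite signs within slide 5 (1.02) and slide 6 (-0.99). Without the 3 arrays of the lower scan range it was 0.69.

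**Figure D4:**
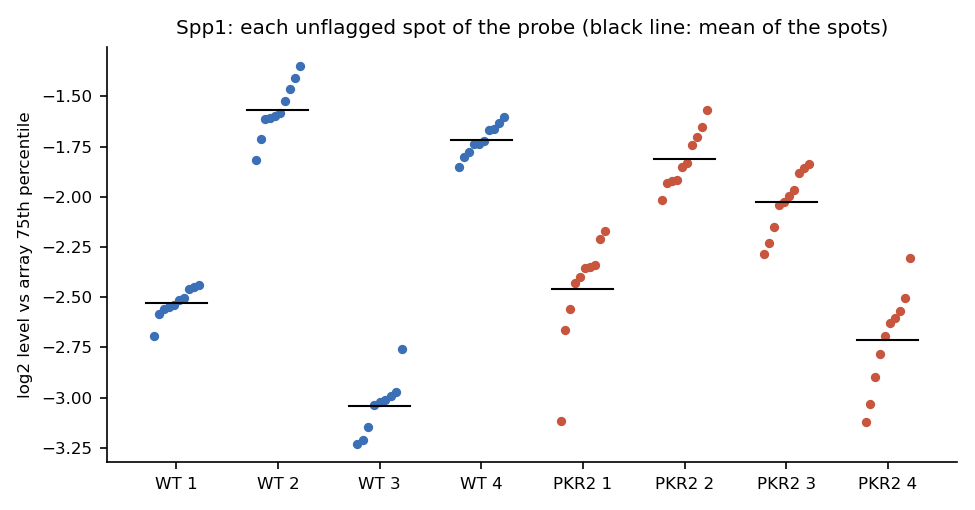
Log2 level of every unflagged Spp1 spot on each array, relative to the array's 75th percentile, in 4 WT (blue) and 4 PKR2 (red) hearts; spots are placed from lowest to highest within a heart and the black line is their mean. The arrays carry 10 spots each, 9 of them used in WT 3, and the means run from -3.04 (WT 3) to -1.57 (WT 2).

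Ctgf and Cyr61, the CCN proteins, are classical targets of YAP with TEAD and of SRF. Ctgf (chromosome 10, 24287891 to 24287950) read 4.89, 5.06, 4.93 and 4.87 in WT and 4.82, 5.48, 5.49 and 4.94 in PKR2 hearts. PKR2 2 and PKR2 3 lay above all WT hearts, while PKR2 1 lay below them all. The means were 4.94 ± 0.083 and 5.18 ± 0.35, a difference of 0.25 (SE 0.19, 1.19-fold, 95% interval -0.18 to 0.68, exact permutation p = 0.343). It was 0.56 within slide 5 and 0.072 within slide 6, and 0.14 without PKR2 3.

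Cyr61 (chromosome 3, 145584609 to 145584668) read 2.40, 1.68, 1.69 and 1.86 in WT and 2.59, 2.11, 1.99 and 2.01 in PKR2 hearts. Every PKR2 heart exceeded WT 2, WT 3 and WT 4, and WT 1 exceeded every PKR2 heart but PKR2 1. The means of 1.91 ± 0.34 and 2.18 ± 0.28 differed by 0.27 (SE 0.22, 1.21-fold, 95% interval -0.21 to 0.75, exact permutation p = 0.257). Without WT 1 the difference was 0.43 (limma adjusted p = 0.773), and against WT 1 alone, the one WT array at the slide position of the PKR2 arrays, it was -0.22. The CCN genes were high in different hearts, and their levels correlated at r = -0.16 (exact permutation p = 0.733, rho = -0.33), or -0.71 without PKR2 2 and PKR2 3.

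**Figure D5:**
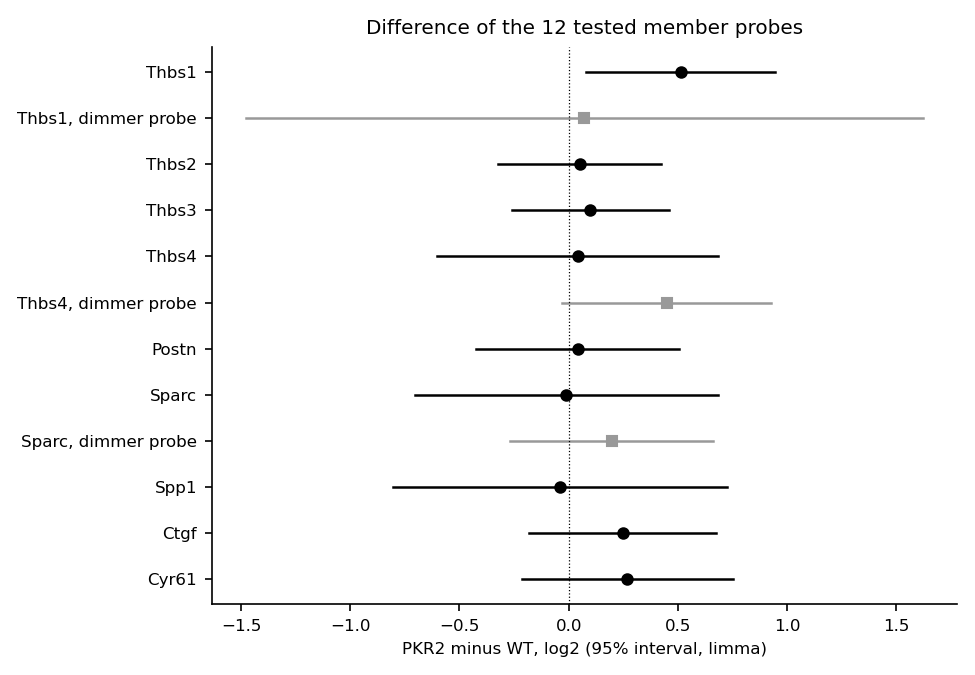
PKR2 minus WT difference on the log2 scale with its 95% interval from limma for the 12 tested probes, the brightest of each gene as black circles and further probes as grey squares. The interval of the brighter Thbs1 probe (0.081 to 0.94) is the one that leaves out 0 before adjustment, and no probe passes after it.

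In the wider programmes to which these genes belong no gene passed either. Of 17 target genes of TEAD and SRF, 10 had higher and 7 lower means and none passed, with a median difference of 0.060, smooth muscle actin Acta2 at 0.36 (SE 0.13, unadjusted p = 0.0217) and calponin Cnn1 at -0.59 (SE 0.41). The 12 TGF-beta response genes split 6 and 6 (median 0.0095), with Tgfb1 at 0.29 (SE 0.21) and Id1 at -0.43 (SE 0.23). The 19 tested immediate early genes split 10 and 9 (median 0.055), with Nr4a1 at 0.35 (SE 0.26) and Junb at -0.19 (SE 0.18). The 15 genes of ATF6 and endoplasmic reticulum stress split 8 and 7 (median 0.0079), with the disulphide isomerases Pdia4 at 0.42 (SE 0.24) and Pdia6 at -0.36 (SE 0.16, unadjusted p = 0.0445). Among 16 receptors of matricellular proteins 10 were higher and 6 lower (median 0.068), with integrin alpha 8, Itga8, at -0.42 (SE 0.25) and the thrombospondin receptor Cacna2d1 at 0.29 (SE 0.22). Of 20 further matricellular genes 14 were tested, 9 higher and 5 lower (median 0.045), with Fbln1 at 0.18 (SE 0.19) and Spock2 at -0.16 (SE 0.15). Limma's adjusted p was 1 for each gene named, and these counts sit beside 54.2% of all tested probes with higher means, or 50.4% with the brightest probe per gene. With median scaling, which moved the median of all features to -0.043, the medians of all these lists but the receptors (0.0067) turned negative, down to -0.053. Under normexp, which moved the median of all features to -0.12, the ATF6 list split 13 and 2 (median 0.29), the receptors 12 and 4 (0.20), the immediate early genes 12 and 7 (0.11) and the further matricellular genes 9 and 5 (0.28). Beside these stood 41.8% of all tested probes with higher means under normexp.

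Across the hearts, levels of the 9 genes were compared in 36 pairs, and no correlation passed adjustment (smallest adjusted p = 0.728). The highest r was between Thbs3 and Ctgf (0.66, exact permutation p = 0.0781, rho = 0.62, 0.68 without WT 3 and WT 4) and the lowest between Thbs2 and Postn (-0.73, exact permutation p = 0.0519, rho = -0.60, -0.55 without WT 4 and PKR2 4). Scan range moved in part with the latter pair. On the 3 arrays of the lower range Thbs2 was lowest and Postn was at 2.38 or above. Postn was also at 2.45 on PKR2 3, an array of the higher range, and the part of the scan was not tested. The 3 arrays and the other 5 are too few for a correlation within each. Single members did run with list scores before adjustment, Thbs3 with the immediate early genes (r = 0.89, exact permutation p = 0.00523, rho = 0.86, 0.73 without WT 3 and WT 4), Thbs4 with the TEAD and SRF targets (r = 0.80, exact permutation p = 0.0222, rho = 0.81, 0.86 without WT 1 and PKR2 4) and Spp1 with the other matricellular genes (r = 0.79, exact permutation p = 0.0166, rho = 0.79, 0.72 without WT 2 and WT 3). Their adjusted p was 0.389 to 0.454.

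The letters before the start sites were read because Thbs3 and Ctgf were the pair with the highest r. A further reason was that the brighter Thbs4 probe ran with the mixed TEAD and SRF list before adjustment. That probe also ran with the macrophage (r = 0.71) and cardiomyocyte (r = 0.70) scores before adjustment. The letters came from the RefSeq promoter table (GRCm38.p6), which holds 11 windows for 8 of the genes. Thbs1 and Ctgf are not among the 8 and their promoters were not analysed here. Each window is the 250 bases before a start site. On both strands, the TEAD motif GGAATG was found in 12.6% of 32851 windows of the table and in those of Thbs4 and Cyr61 among the members; the SMAD motif CAGACA was found in 17.1% of all windows and in 5 of the 11. The AP-1 motif TGANTCA (6.75% of all windows) and the CArG box bound by SRF (1.47%) were found in none of the 11, and 5 held no motif. The windows of Thbs3 (chr3:89214930-89215179, plus strand), Thbs4 (chr13:92794819-92795068, minus strand) and Cyr61 (chr3:145649986-145650235, minus strand) are shown, the last 2 chosen after the matches were seen. Capitals mark TEAD matches (CATTCC, the motif on the opposite strand) and, in Thbs4, 1 SMAD match (TGTCTG).
Thbs3: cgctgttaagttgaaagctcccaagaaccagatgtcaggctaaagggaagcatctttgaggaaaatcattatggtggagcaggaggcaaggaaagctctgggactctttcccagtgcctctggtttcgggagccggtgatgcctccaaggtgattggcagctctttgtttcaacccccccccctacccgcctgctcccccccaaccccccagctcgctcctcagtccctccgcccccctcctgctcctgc
Thbs4: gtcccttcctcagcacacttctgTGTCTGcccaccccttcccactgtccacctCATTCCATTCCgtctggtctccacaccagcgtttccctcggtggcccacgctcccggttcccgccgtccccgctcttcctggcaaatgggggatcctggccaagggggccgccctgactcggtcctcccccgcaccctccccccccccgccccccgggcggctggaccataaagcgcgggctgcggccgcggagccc
Cyr61: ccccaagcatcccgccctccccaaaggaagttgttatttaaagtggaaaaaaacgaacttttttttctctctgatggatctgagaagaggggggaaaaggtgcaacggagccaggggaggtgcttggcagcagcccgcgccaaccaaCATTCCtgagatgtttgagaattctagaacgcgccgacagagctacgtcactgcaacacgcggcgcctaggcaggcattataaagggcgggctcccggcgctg

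In Thbs4 the pair of TEAD matches overlapped by 1 base, at 197 to 192 and 192 to 187 bases before the start, and the SMAD match lay at 227 to 222. In Cyr61 the match lay at 103 to 98 bases before the start. A match describes the letters only, and no binding was measured in these hearts.

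Markers of other cells in the heart were read beside the members for the same reason as those above. The 14 tested adipocyte markers (of 15; Lep was not tested) all had lower means in PKR2 hearts (13 of 14 under normexp). Their median difference was -1.53 and 11 of them stood at an unadjusted p under 0.05, beside 2.58% of all tested probes, though none passed. On PKR2 1 and PKR2 2 their score was -1.84 and -1.54, on PKR2 3 and PKR2 4 it was 0.30 and 0.22, and the WT hearts had -0.049 to 1.03. With this score as a covariate Postn moved most, from 0.042 to 0.37 (SE 0.25). Thbs1 then differed by 0.71 (SE 0.26), Ctgf by 0.33 (SE 0.28), Thbs3 by 0.18 (SE 0.23), Cyr61 by 0.12 (SE 0.30), Spp1 by 0.10 (SE 0.49), Thbs2 by -0.078 (SE 0.24), Sparc by -0.23 (SE 0.44) and Thbs4 by -0.24 (SE 0.39), none past the threshold. The 10 mesothelial markers were likewise all lower (median -0.29; 8 of 10 lower under normexp), and of the 6 tested Schwann cell markers 5 were lower (median -0.27), among them S100b at -1.05 (SE 0.18, limma adjusted p = 1). Smooth muscle and pericyte markers (6 higher, 4 lower, median 0.025), endothelial markers (5 and 5, median -0.0039), cardiomyocyte markers (10 and 2, median 0.077), fibroblast markers (5 and 6, median -0.024) and macrophage markers (3 and 7, median -0.070) held no gene that passed. Under normexp all 5 had positive medians: smooth muscle 8 higher and 2 lower (0.40), endothelium 10 and 0 (0.29), cardiomyocytes 12 and 0 (0.42), fibroblasts 10 and 1 (0.33) and macrophages 7 and 3 (0.22). Of all tested probes 54.2% had higher means in PKR2 hearts, and 41.8% under normexp. The part of the normexp offset in these counts was not tested. The Schwann cell list had 0 higher and 6 lower under normexp (median -0.61). The part of these cell types in the members' differences was not tested beyond that covariate.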

How the data were processed

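Total RNA of 8 hearts was labelled with Cy3, 1 array per heart, per the labels' protocols. Per the file headers, the deposited scanner values are spot intensity on a linear scale from Agilent Feature Extraction 9.5.1.1, background-subtracted, with positions on mm8. A deposited value table holds intensity normalized by the authors (how is not given in the sources used here); its column medians were 139 to 144. It served as an alternative. From the processed signal, log2 minus the 75th percentile of non-control spots was taken; spots with outlier flags were left out, spots of a probe averaged (43379 spots, 41174 probes), and 97 detected probes without an unflagged spot on some array were dropped. Groups were compared over all 8 arrays with limma 3.58.1 (lmFit, eBayes, no covariate) in R 4.3.3 with the package data.table (version 1.17.8), Benjamini-Hochberg at 0.05; single values used exact permutation over 70 relabelings. Probe names other than the members' came from accessions (24375 probes) or symbols (8727) in a RefSeq table (GRCm38.p6); 1788 kept the file's name and 6284 had none. Lists were described by the brightest tested probe per gene, and gene names in the text come from a rule (every member, Prokr2, the 2 genes of smallest p of each list and the 2 features closest to each member across hearts); list genes that were not tested are named outside it, as gaps in their lists. Members and lists were chosen with earlier results of these data known. The fit was checked on simulated data. Alternatives were other background, normalization, filters, probe rules, slide, scan range, array position, variance model, array weights, the adipocyte score and leaving out each array. The labels do not say whether mice were littermates. Each p-value of a group difference sets that difference against the spread between these hearts. With 1 array per heart, this spread includes that of labelling, array, slide and scan range. Number of arrays limits the precision.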

Additional observations from a re-analysis of the deposited data

Results flagged for a closer look

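Of 24 groups of 4 hearts (12 tested probes in each genotype), 1 held a heart far from the others. The dimmer Thbs4 probe read -0.85 in PKR2 1, while the nearest heart of its group, PKR2 4, read -1.48, a gap past Dixon's 95% critical share of the group's range. Chance flags about 1 in 20 such groups. The brighter Thbs4 probe did not set PKR2 1 apart (0.90, inside its group's range of 0.57 to 1.46), and without PKR2 1 the dimmer probe's difference was 0.27 in place of 0.45.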

How the results depend on the processing

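None of the 9 members passed the threshold under any of 24 alternatives (lowest limma adjusted p = 0.388, Thbs1 with array weights), and limma passed 1 feature in place of 0 with probes above background on all 8 arrays, slide as a random block, arrays of position 4 only or a trended robust variance. Thbs1 (0.0026 to 0.83), Thbs3 (0.0012 to 0.28) and Ctgf (0.14 to 0.55) kept a positive difference in all 24. Some of the 24 could not change a difference, since they alter only the set of tested probes or the variance. These are no filter on dim probes, probes above background on all 8 arrays, the brightest probe per gene and the trended robust variance. Leaving out single arrays reuses most of the same hearts. The dimmer Thbs1 probe did not keep its sign, at -0.83 under normexp and 1.30 with slide as a fixed block. The median difference of the members moved to 0.24 under normexp, 0.22 with slide as a fixed block, 0.27 with position 4 only and 0.26 without the 3 arrays of the lower scan range, the last chosen after seeing the data. Normexp also moved the median of all features from 0.019 to -0.12, and median scaling moved it to -0.043.

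Normexp added an offset of 50 to each spot before log2, which narrows log2 differences most where signal is low. The 75th percentile of processed signal was 40.9 on WT 2, 87.5 on PKR2 4 and 116 on WT 4, against 318 to 770 on the other arrays. The part of this offset in the normexp values was not tested. Signs turned as follows, and the cause was not tested. Thbs2 turned under normexp (-0.042), median scaling (-0.011), the authors' values (-0.0092), scan range as a block (-0.027), position 4 only (-0.14), array weights (-0.014), the adipocyte covariate (-0.078) and without the lower scan range (-0.0087). Thbs4 turned under median scaling (-0.019), slide as a fixed (-0.20) or random block (-0.043), scan range (-0.0080), array weights (-0.30) and the adipocyte covariate (-0.24), and Postn under median scaling (-0.020). Sparc turned under normexp (0.43), quantile normalization (0.022), the authors' values (0.059), the mean of probes (0.094), scan range (0.011), position 4 only (0.22) and without the lower scan range (0.20). Spp1 turned under the authors' values (0.081), slide as a fixed block (0.011), scan range (0.058), position 4 only (0.27), the adipocyte covariate (0.10) and without the lower scan range (0.69), and Cyr61 with position 4 only (-0.22).

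Leaving out each array in turn gave 0.39 to 0.62 for Thbs1, -0.024 to 0.13 for Thbs2, 0.037 to 0.18 for Thbs3, -0.16 to 0.20 for Thbs4, -0.052 to 0.15 for Postn, -0.32 to 0.16 for Sparc, -0.32 to 0.18 for Spp1, 0.14 to 0.37 for Ctgf and 0.13 to 0.43 for Cyr61, a members' median of 0.058 to 0.18, and 0 to 1 features past the threshold (1 without PKR2 3). No paired analysis was possible because the labels give the mice no replicate numbers shared between the groups; sharing of slides 5 and 6 is covered by the slide block, which rests on those slides alone, and position 4 sets the PKR2 arrays against WT 1 alone.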

Other observations

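Over the 8 hearts, the named features whose levels ran most closely with each member were picked by Pearson r among 17170 probes above background on all arrays; with so many candidates and 8 points, these values describe the hearts and carry no test. Thbs1 was closest to Noa1, a mitochondrial GTPase (r = 0.98), and to Sin3b, a corepressor scaffold (r = 0.95). Thbs2 ran with Mfsd11 and B3gnt8 (r = 0.97 and 0.96), and Thbs3 with the sorting nexin Snx8 (r = 0.99) and the skeletal ryanodine receptor Ryr1 (r = 0.92). Thbs4 ran with metabolic genes, the acyl-CoA synthetase Acsl6 and glutamate dehydrogenase Glud1 (r = 0.98 each). Postn was closest to the cytokine Il18 (r = 0.94) and to Bcl2a1b (r = 0.93), and Sparc to N4bp3 and the phagocyte oxidase subunit Ncf4 (r = 0.97 each). Spp1 ran with the ATP synthase subunit Atp5pb (r = 0.95) and the adhesion molecule Icam1 (r = 0.92), Ctgf with the lymphoid adaptor Sla and with Ubxn1 (r = 0.92 each), and Cyr61 with Mrm3 and Atg2a (r = 0.99 each). No member was among the closest features of another.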
